A study of Homo sapiens with 39 samples.

Results

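The genes described here are SPARC and 9 other genes of secreted matricellular proteins: SPOCK1, SPOCK2, SMOC1, SMOC2, THBS1, TNC, SPP1, FSTL1 and FSTL3. They were chosen by name, as 10 of the 45435 gene rows that the 13 deposited tables hold after summing the rows of HNF4A. SPARC led to the choice because its mRNA was lower than in the parental cells in all 12 lines, so the differences of these genes from the parental cells are given as a description.

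The study measured poly(A) RNA by RNA-seq in 39 libraries of HCT116, an established human colorectal cancer line, in 13 groups of 3. The parental group was the HCT116 Flp-In T-REx host without an HNF4A construct. In the remaining 12 groups a single stable line carried a single inserted copy of 1 human isoform of HNF4A (hepatocyte nuclear factor 4 alpha, a nuclear receptor of liver and gut) fused at its C-terminus to GFP and switched on by doxycycline. All 39 samples, the parental cells included, received 2.5 µg/ml doxycycline for 48 h without selection antibiotics. Until induction, blasticidin S (5 µg/ml) was given to all of them, together with zeocin (100 µg/ml) for parental cells or hygromycin B (100 µg/ml) for lines. Each isoform was represented by 1 line and no group made GFP alone, so isoform, line, GFP and earlier antibiotic cannot be told apart in a comparison with the parental cells. The labels do not say whether the 3 libraries of a group came from separate cultures, so p-values measure the spread between these libraries, which may be technical.

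Matricellular proteins are secreted into the extracellular matrix without forming its scaffold, and they modulate how cells adhere, move and receive growth factors. SPARC (osteonectin) binds collagen and calcium and counters cell spreading, and the testicans SPOCK1 and SPOCK2, the modular proteins SMOC1 and SMOC2, and the follistatin-like protein FSTL1 share its calcium-binding architecture. FSTL3 binds and neutralises activins, THBS1 (thrombospondin 1) binds the receptors CD36 and CD47 and can activate latent TGF-beta, TNC (tenascin C) is a large glycoprotein of remodelling tissue, and SPP1 (osteopontin) binds integrins and CD44. In colorectal tumours much of the SPARC is made by stromal fibroblasts, and these samples came from a carcinoma line grown alone.

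SPARC lies on the minus strand of chromosome 5 (151661096-151687165), FSTL1 on the minus strand of chromosome 3 (120392293-120451253) and THBS1 on the plus strand of chromosome 15 (39581079-39599466), in GENCODE 29 on GRCh38. The RefSeq table of promoter windows (GRCh38.p14, 250 bases before to 50 after a gene's start) had an entry for 9 of the 10 members. The 250 bases before the THBS1 start (chr15:39580829-39581078, plus strand) are shown because THBS1 and SPARC were the members called between lines. Beside them stand short stretches from the SPARC window (chr5:151686919-151686940, minus strand) and from the FSTL1 window (chr3:120451003-120451024, minus strand). Both stretches lie before the RefSeq start but inside the GENCODE 29 gene, which begins farther upstream on that strand, whereas the THBS1 bases lie outside its gene. All are written 5′ to 3′ on the gene's strand, and capitals mark matches, on either strand, to GGAATG (the TEAD core) or GGGCGG (the GC box of Sp1 and KLF factors).
THBS1: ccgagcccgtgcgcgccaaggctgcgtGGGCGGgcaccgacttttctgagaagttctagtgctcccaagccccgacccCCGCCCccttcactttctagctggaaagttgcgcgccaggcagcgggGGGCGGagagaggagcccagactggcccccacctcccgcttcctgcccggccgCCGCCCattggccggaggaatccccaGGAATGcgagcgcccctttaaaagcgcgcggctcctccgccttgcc
SPARC: cccctccaCATTCCcgcggtcc
FSTL1: gtcttaagGGGCGGcgagggga

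GGAATG occurred once in the SPARC window and once in the THBS1 window, and 14% of all 35116 windows held it. GGGCGG occurred 4 times in the THBS1 window, once in that of FSTL1 and not in that of SPARC, against 45% of all windows with a match. None of the 9 members' windows held CAAAGTCCA, a core bound by HNF4, which 0.384% of all windows held, or AGGTCA, the core of nuclear receptor elements, which 13.8% held. These matches describe the letters of 300 bases per gene, and nothing follows from them about binding. Of the 250 bases before the start, 59.2% were G or C for SPARC, 69.6% for THBS1 and 74.4% for FSTL1. Those of SPARC and FSTL1 lie wholly inside the GENCODE 29 gene, and those of THBS1 lie outside it.

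The labels were checked first on HNF4A, which had a mean of 31.5 TPM (a level scaled by transcript length and by the library's total) in the parental cells and was called higher in all 12 lines. As the HNF4A rows were summed, this check separates lines with a construct from the parental cells but does not tell isoforms apart. The libraries had between 27884 and 30550 genes above 0 TPM. Epithelial markers (EPCAM, CDH1, KRT8, KRT18, KRT19, KRT20 and CDX2) summed to 3060-3187 TPM in the parental cells and 2490-5590 TPM in the lines. Of 8 mesenchymal markers, COL1A1 and ACTA2 reached a mean of 1 TPM, 5 were under 1 TPM in every library, and the sum was 25.9-28.7 TPM in the parental cells and 22.0-36.0 TPM in the lines. Of 3 endothelial markers only PECAM1 reached a mean of 1 TPM (sum 2.48-3.05 TPM in the parental cells and 1.51-6.78 TPM in the lines). Of 3 leukocyte markers only CD68 did so (3.16-4.47 TPM and 4.83-34.7 TPM), with the defining markers PTPRC and CD3E at no more than 0.296 and 0.0548 TPM. The part of these differences in the results was not tested.

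Replicate 1 of isoform 3 stood apart from the other libraries of its line. Its HNF4A level was 407 TPM against 833 and 772 TPM in replicates 2 and 3, and its SPARC level was 7.27 TPM against 0.326 and 0.426 TPM, 19.3 times their mean. THBS1 (7.21 against 4.70 and 5.30 TPM) and FSTL1 (20.5 against 16.2 and 17.1 TPM) were also highest in this library, whereas FSTL3 (7.29 against 7.75 and 7.68 TPM) and SPOCK2 (3.93 against 4.80 and 5.30 TPM) were lowest in it. All 39 libraries were kept. For comparisons between lines that use isoform 3, the SPARC differences and some of the others are also given without this library. The values of class comparisons, which also use isoform 3, are given with it.

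SPARC mRNA was far lower in each of the 12 lines than in the parental cells, and the residual level differed by line over a wide range. It was 15.0, 16.3 and 20.4 TPM in the parental libraries (17.2 ± 2.84 TPM, SD, n = 3), and no library of any line reached the lowest of these, which held for 0.827% of all tested genes. Among the lines the mean was highest in isoform 6, at 5.14 ± 0.464 TPM (SD, n = 3) or 29.9% of the parental mean, and lowest in isoform 2, at 0.105 ± 0.0384 TPM (SD, n = 3) or 0.611%. In bulk RNA, fewer cells with the transcript and less of it in each cell cannot be told apart. In the plot of SPARC by library the 12 lines fall into levels that span more than a decade of the log axis.

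**Figure D1:**
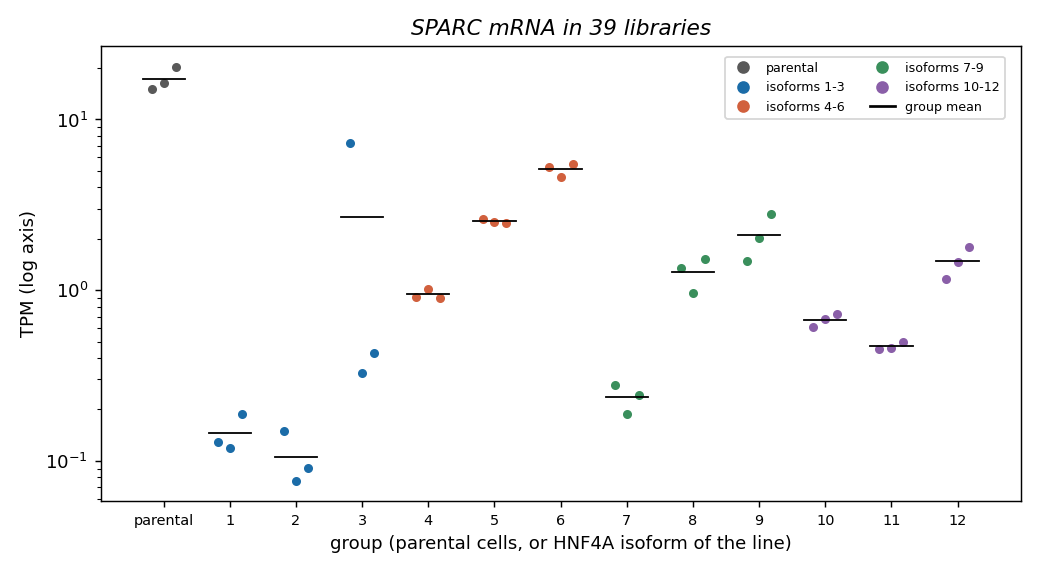
SPARC level in TPM on a log axis (vertical) for the 3 libraries of the parental cells and of each of the 12 lines (horizontal), with black bars for group means and colours for the N-terminal forms. All line libraries lie below the parental libraries, which sit between 15.0 and 20.4 TPM, and 1 isoform 3 library, at 7.27 TPM, lies far above the other 2 of its line.

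In the isoform 1 line SPARC was at 0.129, 0.119 and 0.187 TPM, and in isoform 2 at 0.149, 0.0765 and 0.0903 TPM. Both lines thus kept under 1% of the parental mean, with ranges that overlapped each other. Isoform 3, which shares their N-terminal form, had a mean of 15.5% of the parental level with replicate 1 and 2.19% without it.

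In the lines with exon 1B, SPARC stood at a different level in each line. It was at 0.917, 1.01 and 0.904 TPM in isoform 4 and at 2.61, 2.52 and 2.48 TPM in isoform 5. In isoform 6 it was at 5.28, 4.63 and 5.52 TPM. The ranges of these 3 lines did not overlap each other.

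Among the lines with the P2 first exon, isoform 7 had the lowest SPARC, at 0.279, 0.188 and 0.243 TPM. It was at 1.34, 0.962 and 1.52 TPM in isoform 8 and at 1.49, 2.02 and 2.78 TPM in isoform 9, which overlapped each other. Isoforms 10 (0.612, 0.674 and 0.725 TPM) and 11 (0.454, 0.460 and 0.498 TPM) lay below isoform 12 (1.17, 1.47 and 1.79 TPM) without overlap. The short C-terminal form (isoforms 3, 6, 9 and 12) had the highest mean SPARC within each of the 4 N-terminal groups. In isoform 3 this also held without replicate 1 (0.376 TPM against 0.145 and 0.105 TPM).

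In the order of means from the parental cells down, SPARC ran through isoforms 6, 3, 5, 9, 12, 8, 4, 10, 11, 7, 1 and 2. The ranges of neighbours overlapped for the 6 pairs from isoform 6 down to isoform 4 and for isoforms 1 and 2, and did not overlap for the other 5 neighbours. The overlaps of isoform 3 with isoforms 6 and 5 rest on its replicate 1. Its other 2 libraries lie between the ranges of isoforms 11 and 7.

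On the scale of log2(TPM + 1), which understates the change of a gene at low TPM, the difference of SPARC from the parental cells ran from -4.03 (isoform 2) to -1.56 (isoform 6), with a median over the 12 lines of -3.11 and an SE of 0.34 for each. The median over all 15003 tested genes was between -0.11 and 0.01 in these comparisons. In TPM the parental mean was 164 times the isoform 2 mean, 118 times that of isoform 1, 72.7 times that of isoform 7 and 3.35 times that of isoform 6. A gene was called where limma's Benjamini-Hochberg adjusted p was under 0.05 and the log2 difference at least 1 in size, and SPARC was called lower in all 12 lines. Genes called lower made up 1.78% of those tested for isoform 1, 1.37% for isoform 2, 0.153% each for isoforms 3 and 6, 0.313% each for isoforms 4 and 10, and 0.14% for isoform 5. They made up 0.96% for isoform 7, 0.473% for isoform 8, 0.44% for isoform 9, 0.653% for isoform 11 and 0.133% for isoform 12. Only 2 of 15003 genes (0.0133%) were called lower in every line, SPARC and FGFBP1, a secreted carrier of fibroblast growth factors named after its values were seen, whose differences ran from -2.76 to -1.05. SPARC was chosen for this pattern, so nothing is read from the count. Without replicate 1 of isoform 3, the SPARC difference of that line was -3.72 in place of -2.85 and the SE of SPARC in the other lines fell to 0.11.

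The authors' deposited tables give log2 fold changes for SPARC on a scale other than log2(TPM + 1). Some fall short of the log2 of the TPM ratio. In isoform 9 the parental SPARC mean was 8.19 times that of the line, and the authors' deposited value was -1.89. For SPP1 in isoform 7, with a ratio of 6.95, the authors' deposited value was -0.754. For SPARC the values in the authors' deposited tables were -6.16 for isoform 1, -6.31 for isoform 2 and -5.17 for isoform 7. At the other end they were -1.39 for isoform 6 and -1.89 for isoform 9 in the authors' deposited tables. The value for isoform 3 in the authors' deposited table was -4.35.

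FSTL1, a secreted glycoprotein that acts on BMP signalling and binds the receptor DIP2A, was the most abundant member. It was at 27.5, 28.3 and 30.8 TPM in the parental libraries, and every library of the 12 lines lay below these. It was lowest in isoforms 1 and 2, at 11.7, 12.4 and 12.5 TPM and at 13, 14.3 and 13.7 TPM, while isoform 3, with the same N-terminal form, had 20.5, 16.2 and 17.1 TPM. It was at 19.5, 19.7 and 21.3 TPM in isoform 4 and at 24.8, 23.3 and 22.6 TPM in isoform 6. Isoform 5 was nearest to the parental cells, at 25.5, 25.3 and 25.2 TPM.

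In the P2 lines FSTL1 separated the short C-terminal form from the others. Isoforms 7, 8, 10 and 11 lay between 15.0 and 17.1 TPM, while isoform 9 had 18.3, 20.4 and 22.5 TPM and isoform 12 had 18.8, 19.5 and 22.0 TPM. The mean was thus between 42.3% (isoform 1) and 87.8% (isoform 5) of the parental level. The log2 difference ran from -1.18 to -0.18 and had a median of -0.73.

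THBS1 was lower than in the parental cells in 10 lines, overlapped them in isoform 5 and was higher in isoform 6. It was at 9.33, 9.32 and 8.46 TPM in the parental libraries. Isoform 2 was lowest, at 2.41, 2.70 and 2.47 TPM or 27.9% of the parental mean, and isoform 6 highest, at 12.5, 12.7 and 11.3 TPM or 135%. Isoform 5 had 9.15, 9.93 and 7.01 TPM. In isoform 6 the THBS1 libraries were thus all above the parental libraries, as for 16.7% of all genes, while SPARC was below them.

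In the remaining 9 lines THBS1 lay between 4.00 and 7.21 TPM, and most of their ranges overlapped. Isoforms 8 (6.61, 5.91 and 6.54 TPM) and 10 (6.34, 6.52 and 5.98 TPM) were at the top of these lines. Isoform 11 was at the bottom, with 4.33, 4.74 and 4.00 TPM. The log2 differences from the parental cells ran from -1.51 to 0.40, with a median of -0.74.

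**Figure D2:**
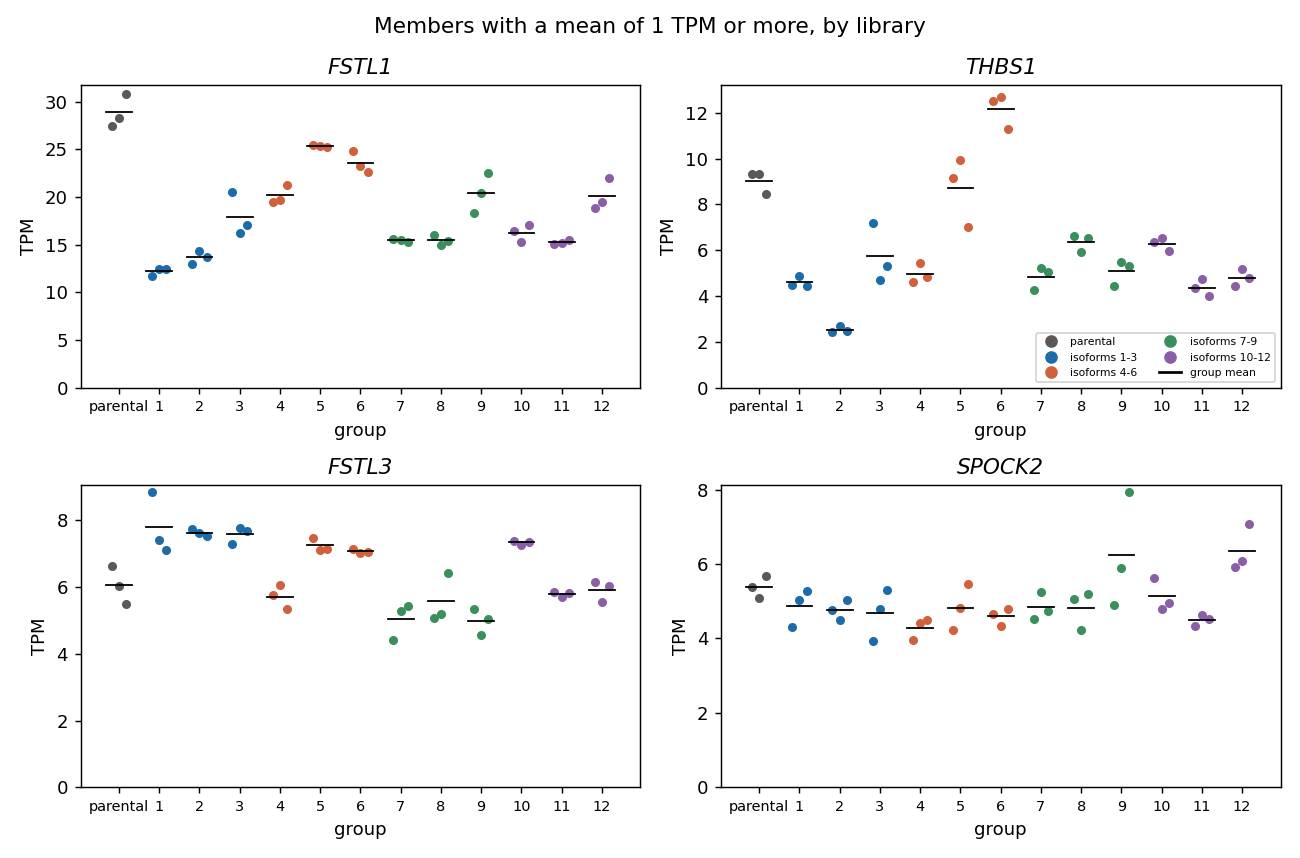
TPM of FSTL1, THBS1, FSTL3 and SPOCK2 (vertical axes, starting at 0) in the 3 libraries of each group (horizontal axes), with black bars for group means and colours for the N-terminal forms. FSTL1 is below the parental libraries in every line, THBS1 is highest in isoform 6 (11.3 to 12.7 TPM), and FSTL3 and SPOCK2 stay between 3.93 and 8.84 TPM in all 39 libraries.

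FSTL3, the activin-binding member, moved in a narrow band. Its parental level was 6.63, 6.04 and 5.48 TPM. It was above all parental libraries in 6 lines (isoforms 1, 2, 3, 5, 6 and 10), with means of 7.06 to 7.79 TPM. It was below all of them in isoforms 7 (5.05 ± 0.547 TPM, SD, n = 3) and 9 (4.99 ± 0.392 TPM, SD, n = 3). The log2 differences ran from -0.24 to 0.32 with an SE of 0.08. Among the 3 lines with the least SPARC, FSTL3 was thus above the parental range in isoforms 1 and 2 and below it in isoform 7.

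SPOCK2, a proteoglycan of the testican family, was at 5.37, 5.09 and 5.68 TPM in the parental cells and had line means between 4.28 TPM (isoform 4) and 6.35 TPM (isoform 12). Its libraries were all lower than the parental ones in 4 lines (isoforms 2, 4, 6 and 11) and all higher in isoform 12. The log2 differences were between -0.27 and 0.20, each with an SE of 0.11.

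Of the 10 members, 5 averaged 1 TPM or more in the 39 libraries and were tested: SPARC, FSTL1, THBS1, FSTL3 and SPOCK2. In the 60 pairs of these 5 genes with the 12 lines, SPARC was called lower in 12, FSTL1 in 2 (isoforms 1 and 2) and THBS1 in 1 (isoform 2). Over all genes and lines 1.51% of pairs were called, 0.574% as lower. The members were chosen on this contrast, so the count is given as a description. FSTL3 and SPOCK2 had 0 calls by limma, and an unadjusted p under 0.05 in 8 and 1 of the 12 lines, where 40.1% of all gene-by-line pairs had one. Non-overlap with the parental libraries was common in these data: over the 12 lines, 26.1% of gene-by-line pairs had all 3 libraries of the line below the 3 parental ones and 19% had them all above, with 15.7% to 42.8% below and 13.2% to 23.5% above in single lines. A negative difference in all 12 lines, as SPARC and FSTL1 had, was found for 11.7% of genes.

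**Figure D3:**
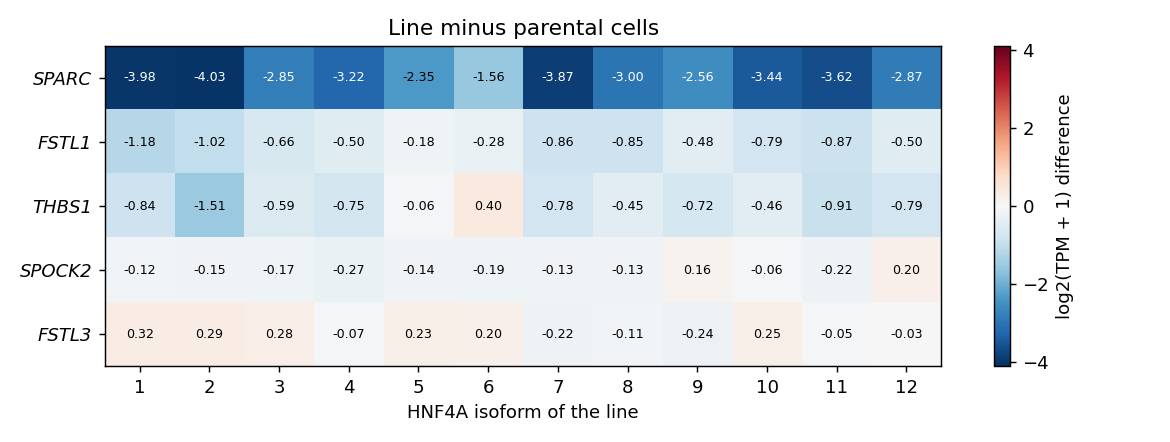
Difference in log2(TPM + 1) between each line and the parental cells for the 5 tested members (rows) in the 12 lines (columns), with blue for lower and red for higher in the line and the value in each cell. SPARC is between -4.03 and -1.56 in every line, FSTL1 is below 0 throughout, and THBS1 changes sign at isoform 6 (0.40).

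SPP1 had a mean of 0.664 TPM over all libraries and so fell under the limit for testing, but its levels separated the lines. The parental libraries had 0.701, 0.650 and 0.365 TPM. It was above all of them in the 3 lines with exon 1B and in isoform 12. The libraries had 2.43, 1.76 and 1.41 TPM in isoform 4, and 1.25, 1.51 and 1.35 TPM in isoform 5. They had 0.760, 1.24 and 1.20 TPM in isoform 6.

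SPP1 was below all parental libraries in isoforms 1, 2, 7 and 11, which also had low SPARC. It was lowest in isoform 7, at 0.0691, 0.112 and 0.0657 TPM. Isoform 1 had 0.148, 0.247 and 0.0991 TPM. In a fit without a limit on low values, SPP1 was called in 1 of the 17 comparisons between lines. This was isoform 4 over isoform 1 (log2 difference 1.29 ± 0.11, SE, limma adjusted p 1.14e-10), where 0.675% of genes were called higher. SPP1 passed the adjusted p alone in 9 of the 17, a count without a share of all genes beside it, so nothing is read from it. Between the exon 1B lines and isoforms 1-3 as a class its difference was 0.83 ± 0.21 (SE, limma adjusted p 0.0506), which missed the threshold.

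**Figure D4:**
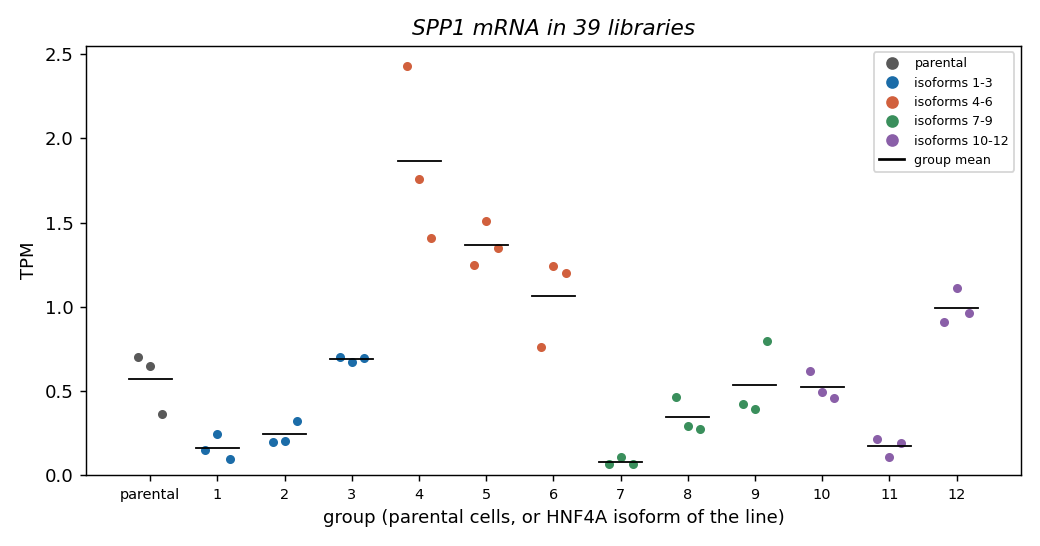
SPP1 level in TPM (vertical axis, starting at 0) in the 3 libraries of each group (horizontal axis), with black bars for group means and colours for the N-terminal forms. The isoform 4, 5 and 6 libraries lie above the parental libraries (0.365 to 0.701 TPM), and those of isoforms 1, 2, 7 and 11 lie below them.

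TNC, SPOCK1, SMOC1 and SMOC2 were at or near 0, with maxima of 0.0790, 0.0630, 0.0339 and 0.0147 TPM. SPOCK1 was listed at 0 in 11 libraries, SMOC1 in 21 and SMOC2 in 36. The highest SPOCK1 value was in replicate 1 of isoform 3, the library that stood apart. TNC was above all parental libraries only in isoform 12, at a mean of 0.0712 TPM. In the fit without a limit on low values, TNC passed limma's adjusted p in 3 of the 17 comparisons between lines, with differences between -0.05 and 0.07 on the log2 scale and none called. The other 3 genes passed in none. These counts have no share of all genes beside them, so nothing is read from them.

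The lines were then compared with each other. These differences use none of the parental libraries, but the limit on low values does, as does the spread per gene shared by the 13 groups of the fit. The 17 comparisons pair lines that differ in 1 part of the protein: the C-terminal form within an N-terminal form, or the N-terminal form within a C-terminal form. The forms are those of the standard isoform nomenclature, since the labels give only isoform numbers. Isoforms 1-6 start at promoter P1, with exon 1B added in 4-6, and isoforms 7-12 at promoter P2. The C-terminus carries a short insertion in isoforms 2, 5, 8 and 11 and is shortened in isoforms 3, 6, 9 and 12. Of the 85 pairs of a tested member and a comparison, 9 were called, 6 for SPARC and 3 for THBS1, against 1.07% of pairs over all genes, and all 9 were higher, as were 0.421% of all pairs.

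SPARC was called higher in the line with the shortened C-terminus in 3 of the 4 N-terminal groups. The log2 difference was 1.66 ± 0.34 (SE, limma adjusted p 0.000986) for isoform 6 over isoform 4 and 1.31 ± 0.34 (SE, adjusted p 0.00757) for isoform 9 over isoform 7, in which 0.307% and 0.08% of genes were called higher. For isoform 12 over isoform 10 it was 0.56 ± 0.34 (SE, adjusted p 0.283), which missed the threshold. For isoform 3 over isoform 1, with 0.273% of genes called higher, it was 1.13 (limma adjusted p 0.00775), but it fell to 0.26 ± 0.13 (SE, adjusted p 0.116) without replicate 1 of isoform 3, and the call was lost.

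Among N-terminal forms, SPARC was called higher with exon 1B than in the plain P1 form for 2 of the 3 C-terminal forms. It was higher in isoform 5 than in isoform 2 by 1.68 ± 0.34 (SE, limma adjusted p 0.000102) and in isoform 6 than in isoform 3 by 1.29 (limma adjusted p 0.00532). Of all genes, 2.01% and 0.0866% were called higher in these comparisons. The difference between isoforms 6 and 3 rose to 2.16 ± 0.13 (SE) without replicate 1 of isoform 3 and was no longer called (0.84 and 0.89) when replicate 2 or replicate 3 was left out in its place. Isoform 4 over isoform 1 gave 0.76 ± 0.34 (SE, limma adjusted p 0.0557), although the TPM ranges of these 2 lines did not overlap. With 0.1 in place of 1 added to the TPM before the log, this difference was 2.099 (limma adjusted p 0.0011) and was called. SPARC was also higher in isoform 8 than in isoform 2, by 1.03 ± 0.34 (SE, limma adjusted p 0.0137), as were 0.487% of genes. Isoform 9 over isoform 3 gave 0.29 (limma adjusted p 0.593) with all libraries and 1.15 ± 0.13 (SE, adjusted p 7.71e-08), a call shared by 0.133% of genes, without replicate 1 of isoform 3.

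The insertion lines had SPARC differences of -0.05 (isoform 2 over 1), 0.86 (isoform 5 over 4), 0.87 (isoform 8 over 7) and -0.18 (isoform 11 over 10), none of which passed limma's adjusted p with all libraries. Isoform 8 over 7 gave 2.015 (limma adjusted p 0.00875) and was called with 0.1 in place of 1 added to the TPM. Isoforms 10, 11 and 12 differed from isoforms 7, 8 and 9 by 0.43, -0.62 and -0.31, with none passing. Without replicate 1 of isoform 3 the SE of SPARC fell from 0.34 to 0.11, and 4 of these 7 differences passed limma's adjusted p (0.86, 0.87, 0.43 and -0.62) without reaching the minimum difference of 1. So did isoform 4 over isoform 1 (limma adjusted p 1.47e-06) and isoform 12 over isoform 10 (limma adjusted p 0.00062).

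THBS1 was called in 3 comparisons, in all of which SPARC was called too. It was higher in isoform 5 than in isoform 2 by 1.45 ± 0.11 (SE, limma adjusted p 9.42e-13), in isoform 6 than in isoform 4 by 1.15 ± 0.11 (SE, adjusted p 2.54e-09) and in isoform 8 than in isoform 2 by 1.06 ± 0.11 (SE, adjusted p 2.14e-09). The last of these was 0.9995, just under the minimum, with median-of-ratios scaling. Isoform 6 over isoform 3 gave 0.99 (limma adjusted p 2.55e-08), just under the minimum, and 1.14 without replicate 1 of isoform 3. The SPARC differences that passed the adjusted p were all higher with all libraries kept. Without replicate 1 of isoform 3, SPARC also passed as lower, in isoform 11 over isoform 8 (-0.62). THBS1 had differences on both sides of 0 that passed the adjusted p with all libraries. It was lower in isoform 2 than in isoform 1 (-0.67, limma adjusted p 3.11e-05), in isoform 11 than in isoform 10 (-0.44, adjusted p 0.00388) and in isoform 11 than in isoform 8 (-0.46, adjusted p 0.00472). It was also lower in isoform 12, with the shortened C-terminus, than in isoform 10 (-0.33, limma adjusted p 0.0274).

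FSTL1 was called in 0 of the 17 comparisons by limma. It passed the adjusted p alone in 10, always as higher, a count without a share of all genes, so nothing is read from it. The unadjusted p of FSTL1 was under 0.05 in 12, where 35.7% of all pairs had one. Its largest differences were 0.84 ± 0.07 (SE, limma adjusted p 1.09e-11) for isoform 5 over isoform 2 and 0.68 ± 0.07 (SE, adjusted p 7.9e-10) for isoform 4 over isoform 1. For the shortened C-terminus FSTL1 was higher in all 4 N-terminal groups, by 0.51, 0.22, 0.37 and 0.29, each passing the adjusted p. These passes also have no share of all genes beside them. The difference of isoform 3 over isoform 1 was 0.42 ± 0.07 (SE, limma adjusted p 1.13e-05) without replicate 1 of isoform 3.

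**Figure D5:**
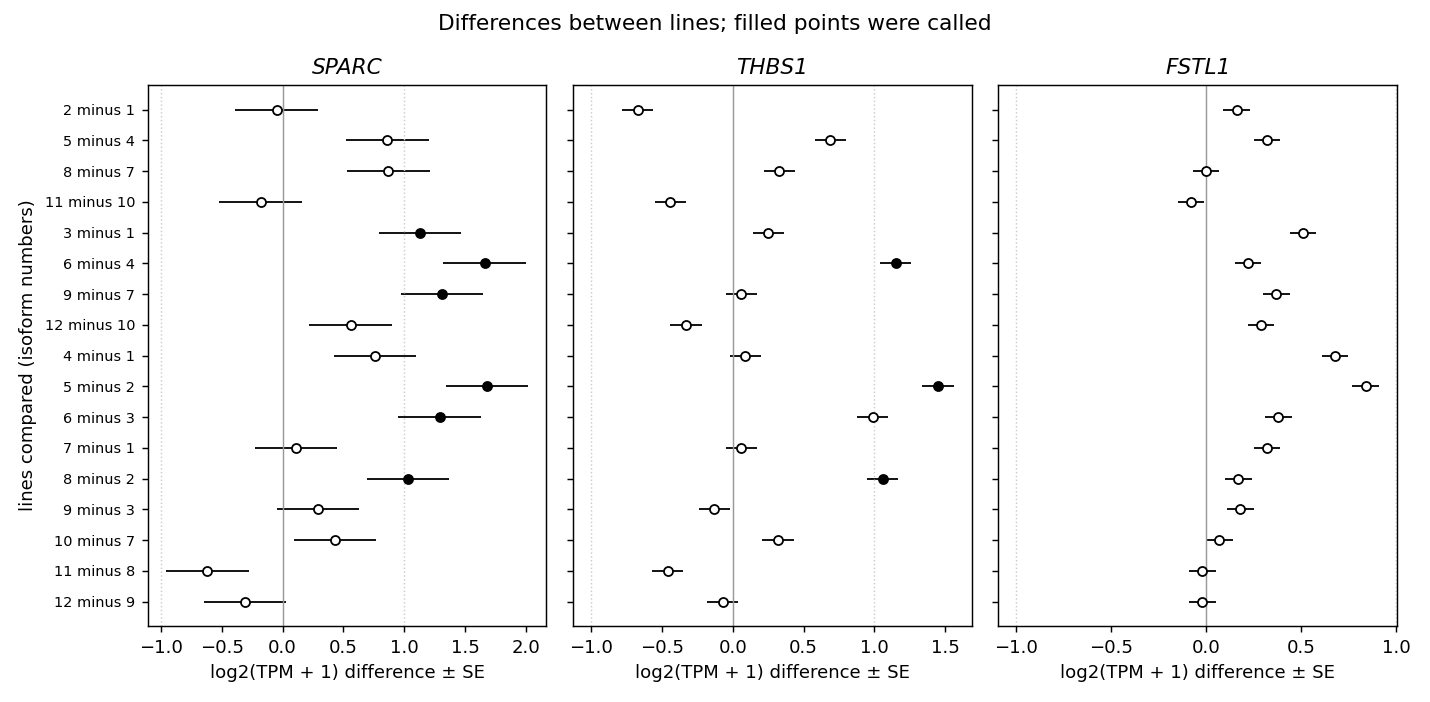
Difference in log2(TPM + 1) with its SE (horizontal axes) for SPARC, THBS1 and FSTL1 in the 17 comparisons between lines (vertical axis, isoform numbers), where filled points were called and dotted lines mark a difference of 1. SPARC has 6 filled points between 1.03 and 1.68, THBS1 has 3 between 1.06 and 1.45, and FSTL1 has none, with a largest value of 0.84.

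FSTL3 was called in 0 of the 17 comparisons by limma, with an unadjusted p under 0.05 in 10, where 35.7% of all pairs had one. It passed the adjusted p in 9 (6 lower, 3 higher), a count without a share of all genes, so nothing is read from it. It was lower in the P2 lines than in their plain P1 counterparts, by 0.54 ± 0.08 (SE, limma adjusted p 1.08e-06) for isoform 7 against 1, by 0.40 for isoform 8 against 2 and by 0.52 for isoform 9 against 3 (values of -0.54, -0.40 and -0.52). It was higher in isoform 10 than in isoform 7 by 0.47 ± 0.08 (SE, adjusted p 1.83e-05). SPOCK2 was also called in 0, with an unadjusted p under 0.05 in 3, and passed limma's adjusted p only for isoform 9 over isoform 3 (0.34 ± 0.11, SE, adjusted p 0.0255). Without replicate 1 of isoform 3 this difference was 0.24 ± 0.12 (SE, limma adjusted p 0.15) and no longer passed.

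Classes of isoforms were compared with the 12 line means as the units, in a model with terms for the N-terminal and the C-terminal form. In the values given here, the mean of isoform 3 includes its replicate 1. SPARC was higher in the 3 lines with exon 1B than in isoforms 1-3 by 1.25 ± 0.22 (SE, limma adjusted p 0.00484), the only member called in any of the 5 class comparisons. In this comparison 1.95% of genes were called, 0.587% as higher. SPARC remained called in it when any 1 of the 36 line libraries was left out. FSTL1 (0.64 ± 0.10, SE, limma adjusted p 0.00271) and THBS1 (0.84 ± 0.28, SE, adjusted p 0.0457) were also higher there, below the minimum difference. HNF4A mRNA was higher in the same class comparison by 0.45 ± 0.10 (SE, limma adjusted p 0.0119). Its part in these differences was not tested.

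For the shortened C-terminus as a class, SPARC differed by 0.98 ± 0.17 (SE) from the other C-terminal forms, with a limma adjusted p of 0.0966 that missed the threshold. Replicate 1 of isoform 3, with SPARC at 7.27 TPM against 0.326 and 0.426 TPM in the others of its line, is part of this value. FSTL1 differed by 0.30 ± 0.07 (SE, limma adjusted p 0.124). FSTL3 was lower in isoforms 7-9 than in 1-3 (-0.48 ± 0.11, SE, limma adjusted p 0.0261), also under the minimum. SPOCK2 passed in none of the 5, and 0 of its unadjusted p-values were under 0.05, where 21.4% of all pairs had one.

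Other matricellular genes, the receptors of these proteins and the activin and TGF-beta genes on which they act were described from lists chosen by function. Of 24 further matricellular genes, 4 passed the limit on low values: THBS3, TNXB, CYR61 and CTGF. Over the 12 lines these 4 genes had 3 calls against the parental cells, with a median log2 difference of -0.19 against -0.03 for all genes. CTGF, a CCN-family protein that binds integrins, averaged 6.42 ± 1.02 TPM (SD, n = 3) without a construct and was called higher in isoform 7 (17.9 ± 1.17 TPM, log2 difference 1.36, limma adjusted p 9.03e-09) and isoform 11 (14.2 ± 2.08 TPM, 1.03, adjusted p 1.42e-06). In isoforms 2, 4, 5 and 6 CTGF was below all parental libraries (means of 3.80, 3.42, 3.33 and 4.68 TPM). In isoforms 1, 8 and 9 it was above all of them (means of 10.6, 11.9 and 9.45 TPM), with log2 differences of 0.64, 0.81 and 0.50 that passed limma's adjusted p but not the minimum. The call in isoform 11 was lost when parental replicate 2 or isoform 11 replicate 1 or 3 was left out.

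CYR61, another CCN protein, was at 18.6, 18.8 and 26 TPM in the parental libraries. It was called lower in isoform 4 (9.60 ± 0.436 TPM, SD, n = 3, log2 difference -1.05, limma adjusted p 8.21e-06), a call that was lost without parental replicate 1 (-0.89). It was above all parental libraries in isoforms 6 (31.5 ± 0.949 TPM) and 8 (33.3 ± 1.38 TPM), with differences of 0.57 and 0.65. THBS3, a thrombospondin of the pentameric group, ran from -0.55 to -0.04 over the lines without a call.

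Of 18 receptors and partners, 12 passed the limit, among them CD47 and CD44, which bind THBS1 and SPP1. Only ITGB8 was called, higher in 1 line and lower in 6, and the list's median over the lines was -0.05 against -0.03 for all genes. ITGB8, the integrin chain that pairs with ITGAV and binds latent TGF-beta, averaged 4.38 ± 0.0782 TPM (SD, n = 3) without a construct. It was 0.482 ± 0.0978 TPM in isoform 2 (log2 difference -1.86, limma adjusted p 7.29e-15) and 0.535 ± 0.0444 TPM in isoform 7 (-1.81, adjusted p 3.32e-14), and 11.6 ± 1.15 TPM in isoform 4 (called higher, adjusted p 1.26e-09). CD47, a THBS1 receptor, ran from -0.57 (isoform 7) to 0.20 (isoform 4), and CD44 from -0.60 to 0.07. DIP2A, a receptor of FSTL1, stayed between -0.03 and 0.14.

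Of 25 activin and TGF-beta genes, 18 passed the limit, with 6 calls, all lower, and a median over the lines of -0.04. SMAD6, an inhibitory SMAD of BMP signalling, was called lower in 5 lines (isoforms 1, 2, 7, 8 and 11). It fell from a parental 15.1 ± 1.58 TPM (SD, n = 3) to 3.46 ± 0.571 TPM in isoform 7 (log2 difference -1.85, limma adjusted p 4.47e-11) and was at 16.9 ± 1.69 TPM in isoform 6. BAMBI, a pseudoreceptor that damps TGF-beta signals, was called lower in isoform 2 (1.02 ± 0.243 TPM against 3.55 ± 0.206 TPM, -1.18, limma adjusted p 4.24e-12). TGFB1, a TGF-beta ligand, was lowest in isoform 2 (-0.49) without a call. The 3 lists, with 4, 12 and 18 tested genes, give 3, 7 and 6 calls over 12 lines, where 1.51% of all gene-by-line pairs were called. These calls come from few genes: CTGF (2) and CYR61 (1), ITGB8 (7), and SMAD6 (5) and BAMBI (1).

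The genes whose level was most like that of SPARC over the 12 line means of log2(TPM + 1) were found by Pearson's r, as a description of lines measured on 1 scale. They were LRRC26 (r = 0.936), TMEM218 (0.928), CENPBD1P1 (0.921), CAMK4 (0.920) and LOC105373159 (0.919). CAMK4, a calcium-dependent kinase, was at 4.51 TPM in the parental cells, 1.57 TPM in isoform 1 and 5.70 TPM in isoform 6, so in isoform 6 it was above its parental level, unlike SPARC. LRRC26, a channel subunit, had 2.24 TPM in the parental cells, 1.49 TPM in isoform 1 and 5.00 TPM in isoform 6. Without replicate 1 of isoform 3, r was 0.872 for LRRC26, 0.891 for TMEM218, 0.909 for CENPBD1P1, 0.928 for CAMK4 and 0.805 for LOC105373159.

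Among the members, r with SPARC was 0.877 for FSTL1, 0.837 for THBS1, 0.151 for SPOCK2 and -0.009 for FSTL3, and it was 0.696 for HNF4A mRNA. Without replicate 1 of isoform 3 these were 0.872, 0.833, 0.160, -0.122 and 0.725, in the same order. FSTL1 and THBS1 then stood above LOC105373159 (0.805), so the ranking rests in part on that library. The genes most like FSTL1 were PHC1 (r = 0.980), TTC39C (0.978), CTHRC1 (0.977), LOC105369809 (0.977) and TFAP2A (0.976). CTHRC1, a secreted collagen triple-helix repeat protein, was at 24.3 TPM in the parental cells, at 8.99 TPM in isoform 2 and at 24.1 TPM in isoform 6. PHC1, a Polycomb protein, was at 16.7 TPM in the parental cells, 8.94 TPM in isoform 1 and 18.3 TPM in isoform 5.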

How the data were processed

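RNA-seq of 39 libraries in 13 groups was used. The authors deposited 1 table of TPM per group, and the submitters' processing notes name Trimmomatic 0.36, FastQC 0.11.5, kallisto 0.44.0, DESeq2 1.22.2 and the build GRCh38.p12, with no role or order. The annotation is not given in the sources used here. Per the file headers, each line's table also holds statistics of the authors against the parental cells, namely a mean normalised count (a signal), a log2 fold change, the SE of that change, a score (the statistic of their test) and a p-value, raw and adjusted. These entered no fit. TPM summed to 999972.6-999987.7 per library, so read depth is unknown and no interval for counting error was computed.

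The 12 HNF4A rows were summed, leaving 45435 rows. Linear models were fitted with limma 3.58.1 in R 4.3.3 on log2(TPM + 1), with the mean-variance trend and 13 groups (26 residual degrees of freedom), for the 15003 genes averaging 1 TPM or more, after a check on simulated data. P-values were adjusted over all tested genes within each comparison. The families were 12 lines against the parental cells, 17 pairs of lines, and 5 class comparisons of 12 line means. For isoforms 4 and 5, 29 gene names differed from the other files, none of them a member, and their 6 libraries carry no replicate number.

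The members and lists were chosen with earlier results of these data known. Genes were named by a rule: the 10 members, HNF4A, up to 6 genes per list called in the most lines, the 5 genes with the highest r with SPARC and with FSTL1, and the cell type markers. Alternatives were another pseudocount (0.1), limits of 5 TPM or none, median-of-ratios scaling, no trend, no minimum difference, a replicate block, fits of the 2 groups compared, and leaving out each library. A fit of all contrasts without replicate 1 of isoform 3 was chosen after seeing the data.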

Additional observations from a re-analysis of the deposited data

Results flagged for a closer look

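Tested differences between lines or classes of lines concerned SPARC and THBS1. SPARC was higher, on the log2 scale, in isoform 5 than in isoform 2 (1.68), in isoform 6 than in isoform 4 (1.66) and isoform 3 (1.29), in isoform 9 than in isoform 7 (1.31), in isoform 3 than in isoform 1 (1.13), in isoform 8 than in isoform 2 (1.03), and in isoforms 4-6 than in 1-3 (1.25). THBS1 was higher in isoform 5 than in isoform 2 (1.45), in isoform 6 than in isoform 4 (1.15) and in isoform 8 than in isoform 2 (1.06). Of these 10 differences, SPARC in isoform 3 over isoform 1 rests on replicate 1 of isoform 3 and was 0.26 without it. SPARC in isoform 6 over isoform 3 was no longer called when isoform 3 replicate 2 (0.84) or replicate 3 (0.89) was left out. SPARC in isoform 9 over isoform 7 missed limma's adjusted p when isoform 9 replicate 3 was left out (1.15), and SPARC in isoform 8 over isoform 2 missed the minimum when isoform 8 replicate 3 was left out (0.95). THBS1 in isoform 8 over isoform 2 fell just under the minimum with median-of-ratios scaling (0.9995).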

How the results depend on the processing

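The members' 15 calls against the parental cells were 16 with a pseudocount of 0.1, 14 with median-of-ratios scaling, 15 without a filter, without the trend, in fits of the 2 groups compared and without replicate 1 of isoform 3, and 14 to 15 over single libraries left out. The FSTL1 call in isoform 2 was lost with median-of-ratios scaling, without parental replicate 3 and without isoform 2 replicate 1. A filter of 5 TPM, under which SPARC is no longer tested, left 3, and no minimum difference gave 41. The 9 calls between lines became 12, 8, 10, 9 and 10 with the pseudocount, the scaling, no filter, no trend and without replicate 1 of isoform 3, were 8 to 10 over libraries left out, and were 3 with the filter of 5 TPM and 37 with no minimum. The class call stayed 1 under the other settings (1 to 1 over libraries left out), was 0 with the filter of 5 TPM and 4 with no minimum.

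Calls of the other matricellular genes (3) were 6 without a filter, 23 with no minimum and 2 to 3 over libraries left out. Those of receptors (7) were 0 with the filter of 5 TPM, which leaves ITGB8 untested, 66 with no minimum and 7 to 7 over libraries left out. Those of activin and TGF-beta genes (6) were 84 with no minimum and 6 to 7 over libraries left out. No called value changed sign under any alternative. Scaling moved the median of all genes by up to 0.10, from -0.11 to -0.01 in isoform 1.

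With the replicate number as a block, over the lines that carry one, the members had 13 calls against the parental cells (13 without the block) and 5 between lines (5 without), and the 3 lists had 2, 6 and 6 (the same without). Deviations of same-numbered libraries had a median correlation of 0.05 over 165 pairs (-0.18 to 0.23, 38 over 0.1). Of 33 libraries, 29 correlated best with their own number, a hint from the data that libraries of 1 number share something, which the labels do not name. Read depth is unknown from TPM, which limits what can be said of TNC, SPOCK1, SMOC1 and SMOC2.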

Other observations

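The authors' mean normalised count in the isoform 3 table followed the TPM of 5 libraries more closely than those of all 6. The ratio of that mean count to the mean TPM of the libraries was set, gene by gene, against its median in the other lines' tables, a check chosen after seeing the data. Over 357 genes with a mean of 2 TPM or more and a highest library more than 3 times the lowest, the median absolute log2 deviation was 0.089 with all 6 libraries and 0.0166 without replicate 1 of isoform 3. Leaving out any 1 of the other 5 libraries gave 0.168 to 0.199. In the other 11 lines it was 0.0127 to 0.0316 with all 6 libraries and 0.104 to 0.192 with 1 left out. The deposited SPARC value for isoform 3 (-4.35 in the authors' deposited table) comes from this table.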
